A study of Mus musculus with 15 samples.

Results

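The Muribaculaceae were followed here as single sequence variants in mouse stool. A variant is an amplicon sequence variant (ASV), 1 distinct V4 sequence of the 16S rRNA gene of bacteria, standing for a strain or a few close relatives, or for 1 of several differing copies of that gene in 1 genome. Members were all ASVs whose deposited taxonomy named this family and that had at least 1 count in 15 libraries. This gave 63 of the 507 ASVs with counts (12.4%), which held 355424 of 1403011 counts (25.3%). ASVs are numbered by their total count, from ASV8 for the most abundant member. No genus was named for 61 members, and the other 2, ASV35 and ASV277, belonged to Muribaculum.

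The mice were littermates without Gpr15l (Gpr15l-/-), a gene for a chemoattractant peptide of mucosal epithelia, in every group, so no group had the gene. Acute colitis was induced with DSS (dextran sulfate sodium), which damages the lining of the colon. One arm was given recombinant human GPR15L and the other sterile phosphate-buffered saline (PBS) as placebo, once a day by the rectal route from day 3 to day 9. The groups were GPR15L before DSS (libraries 1 to 3), PBS before DSS (4 to 6), GPR15L after DSS (8 to 11) and PBS after DSS (12 to 15). For stool taken before DSS the labels give the arm and not whether a dose had been given. Titles write Gpr15 for the deleted gene where the series text writes Gpr15l, and neither strain nor age is stated in the labels.

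Muribaculaceae belong to the Bacteroidales and are among the commonest bacteria of the mouse gut. They break down plant polysaccharides and host-derived sugars and release short-chain fatty acids such as acetate and propionate. Many have not been given a genus, so in mice the family is often a mixture of variants without names. Richness is the number of variants found, and evenness says how equally the counts are spread over them.

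Total counts ran from 48847 to 197433 per library and counts of the family from 5675 to 67590. A variant without a count in a group may still hold up to 0.000912% of counts in GPR15L before, 0.000872% in PBS before, 0.000912% in GPR15L after and 0.00128% in PBS after, which is 3 counts over the group's summed total. This limit allows for counting error alone, and folds relative to a group without counts are "at least" values against it. The title of library 7 says PBS after DSS, but its name falls in the run of library names from before DSS, so it was kept out of the comparisons. Its variants were closest to those of library 6, a PBS library from before DSS, at a Bray-Curtis distance of 0.155 (from 0 for identical shares within the family to 1 for none in common), and at least 0.742 from every PBS library after DSS. Library 6 in turn lay 0.664 and 0.668 from the other 2 PBS libraries before DSS, which were 0.246 apart. Time coincides with the run of library names, and mice were kept 3 to 4 to a cage with no cage given per library, so neither library batch and DSS nor cage and arm can be told apart. Values over time compare libraries and follow no mouse, and nothing in the labels says more of how the mice were sampled, so p-values measure the spread between these libraries.

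The family was abundant in every library, and its total passed the test in none of the group comparisons. Before DSS it took 34.2%, 40.5% and 66.5% of counts in the GPR15L arm, and 14.2%, 13.5% and 10.7% in the PBS arm. After DSS the shares were 21.1%, 13.7%, 31.8% and 25.0% with GPR15L and 21.3%, 21.3%, 8.36% and 19.7% with PBS. The arms did not overlap before DSS, at 47.1% ± 17.1 (SD, n = 3) against 12.8% ± 1.86 (n = 3), and overlapped after it, at 22.9% ± 7.57 (n = 4) against 17.7% ± 6.26 (n = 4). Of 38 families tested as summed counts in edgeR, 0% were called between the arms before DSS, so the family's log2 fold change of 2.69 ± 0.79 (SE) was not called either (adjusted p = 0.0907). That value was near the threshold: it was called with DESeq2 (2.29, adjusted p = 0.0172), without the count filter (2.75, adjusted p = 0.0341) and without library 1 or library 2 (adjusted p = 0.0331 and 0.0358). It was not called with the 2 groups alone (2.66, adjusted p = 0.455), without library 6 (2.81, adjusted p = 0.149) or without library 3 (1.67, adjusted p = 0.211), nor in the other alternatives run. The change over DSS in the GPR15L arm was -1.51 ± 0.69 (edgeR adjusted p = 0.107), and -0.50 without library 3.

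The remaining family totals were also not called. The arms after DSS differed by 0.85 ± 0.65 on the log2 scale (edgeR adjusted p = 0.429), where 21.1% of families were called. The change over DSS in the PBS arm was 0.32 ± 0.70 (edgeR adjusted p = 0.725, 5.26% of families called). The difference between the arms in their change over DSS, the interaction, was -1.84 ± 0.99 (edgeR adjusted p = 0.225, 5.26% of families called).

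**Figure D1:**
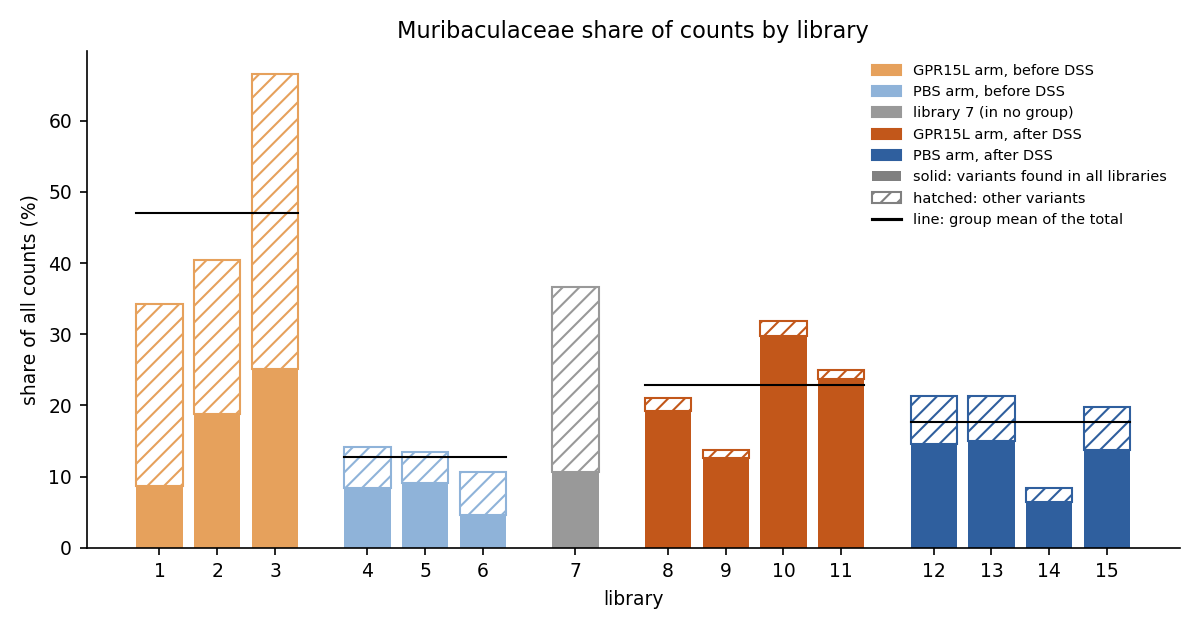
Share of all counts (%) held by Muribaculaceae in each library, with the solid part for the 14 variants found in all 15 libraries and the hatched part for all others. Lines are group means of the total; the hatched part is 1.59% of counts on average in libraries 8 to 11 and 29.5% in libraries 1 to 3.

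The variants fell into a shared and a variable set. Of the 63 members, 14 had counts in all 15 libraries (ASV8, ASV18, ASV20, ASV24, ASV25, ASV27, ASV30, ASV32, ASV33, ASV35, ASV53, ASV66, ASV72 and ASV83) and held 51.7% of the family's counts. Another 32 were found in 2 to 14 libraries, and 17 in 1 library only with at most 19 counts each. The shared 14 made up 25.3%, 46.6% and 37.7% of the family's counts in GPR15L before, and 59.5%, 67.3% and 42.9% in PBS before. After DSS they made up 91.4%, 91.9%, 93.4% and 94.8% with GPR15L, and 68.4%, 70.2%, 77.3% and 69.5% with PBS. In the GPR15L arm the family was thus mostly variable variants before DSS and almost wholly shared ones after it, and the groups did not overlap. The 2 times in the PBS arm did not overlap either, at up to 67.3% before and from 68.4% after. The set requires counts in every library, so where few variants were found its share is partly fixed by the definition. Libraries 8 to 11 had 19 to 23 members each, these 14 among them.

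As a share of all counts, the shared set held 17.5% ± 8.29 (SD, n = 3) in GPR15L before and 21.3% ± 7.22 (n = 4) after, while all other variants held 29.5% ± 10.5 and 1.59% ± 0.459. In the PBS arm the shared set held 7.35% ± 2.43 before and 12.4% ± 4.01 after, and the others 5.41% ± 0.886 and 5.26% ± 2.26. Over DSS in the GPR15L arm the shares outside the shared set did not overlap, and those of the shared set did. The shared set was defined on these same libraries, so its shares are a description.

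Richness was lowest in the GPR15L libraries after DSS, with the exceptions that library 6 (and library 7, in no group) lay within their range. At an equal 5675 counts of the family per library, 42.4, 37.9 and 43.4 variants were expected in GPR15L before, and 39.4, 33.0 and 20.6 in PBS before. After DSS the numbers were 21.6, 21.0, 22.5 and 19.0 with GPR15L, and 26.4, 34.9, 27.0 and 29.0 with PBS. Every GPR15L library after DSS was below every GPR15L library before it (mean difference -20.2 variants) and below every PBS library after DSS (-8.33 variants). The arms before DSS overlapped (10.2 variants, and 5.06 without library 6), and so did the PBS libraries before and after DSS (-1.67 variants). Without library 4 the last difference was 2.51 and without library 6 it was -6.85. Before thinning, the ASVs found failed to overlap between the groups in 20.0% of the 20 families with 5 or more ASVs over DSS in the GPR15L arm and in 40.0% between the arms after DSS, so a separation there was common among families. No test was run on richness.

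Evenness was lower with GPR15L after DSS than with PBS after DSS. Pielou evenness, which is 1 when all variants found have equal counts, was 0.787, 0.853 and 0.787 in GPR15L before and 0.852, 0.847 and 0.764 in PBS before. It was 0.699, 0.788, 0.761 and 0.679 in GPR15L after and 0.872, 0.802, 0.851 and 0.827 in PBS after. The arms after DSS did not overlap (0.732 ± 0.051 against 0.838 ± 0.030, SD, n = 4 each), and 41.7% of 12 families with enough variants did not overlap there. Library 7, in no group, was lower than every other library at 0.647, and library 6 lay within the range of GPR15L after. With library 7 counted as titled the arms after DSS overlapped, and their mean difference was -0.0683 in place of -0.107. The other comparisons overlapped, with mean differences of -0.0124 between the arms before DSS (27.3% of 11 families did not overlap), -0.0770 over DSS with GPR15L (18.2%) and 0.0172 over DSS with PBS (27.3%).

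**Figure D2:**
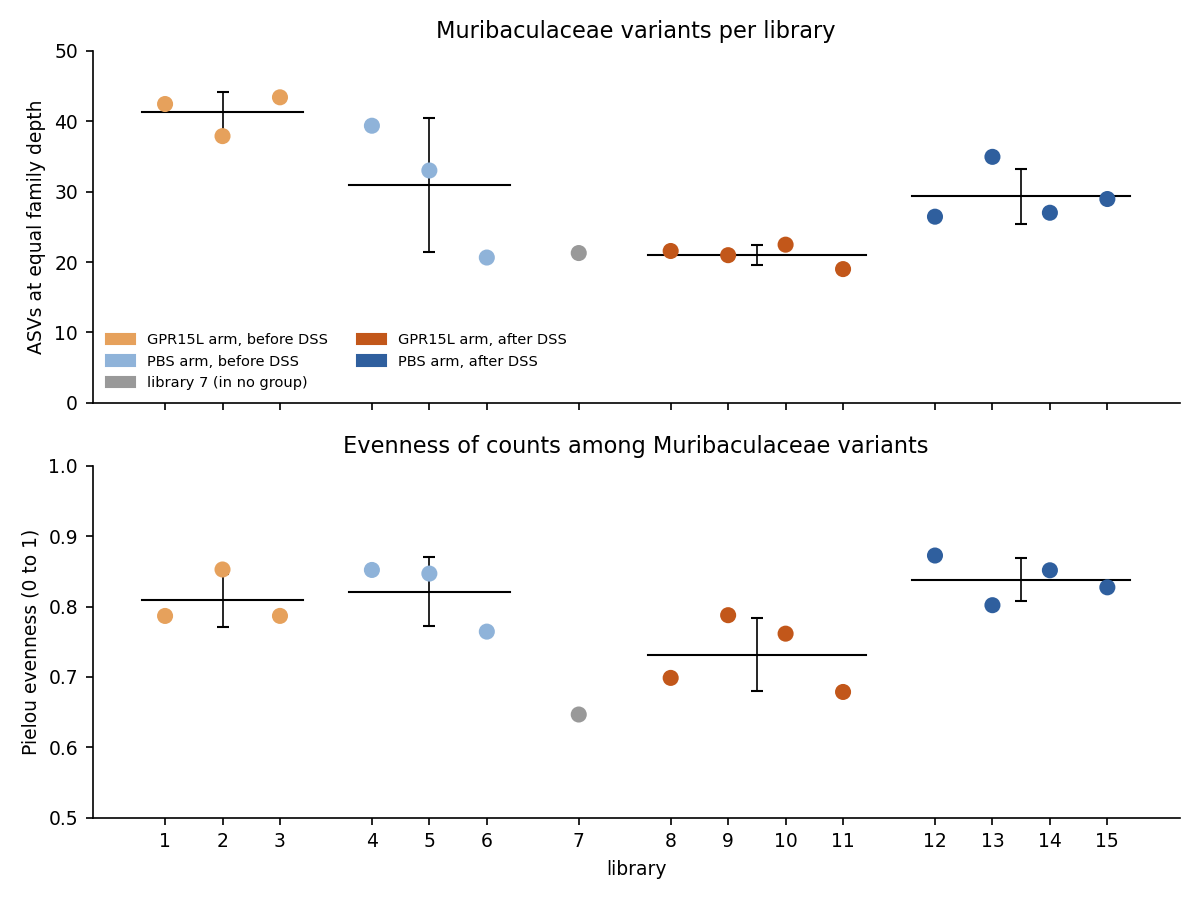
Number of Muribaculaceae variants expected at 5675 family counts (top) and Pielou evenness from 0.5 to 1 (bottom), 1 point per library, with the group mean and its SD. Libraries 8 to 11 hold 19.0 to 22.5 variants and libraries 12 to 15 hold 26.4 to 34.9; in evenness, libraries 8 to 11 lie below libraries 12 to 15.

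The leading variant changed between groups. ASV8 led the family in all 4 GPR15L libraries after DSS, with 39.7%, 26.6%, 23.1% and 44.5% of the family's counts. Before DSS the leader in that arm was ASV16 in libraries 1 and 3 and ASV13 in library 2. In the PBS arm ASV30 led in libraries 4 and 5, ASV14 in library 6, ASV24 in libraries 12 and 14 and ASV8 in libraries 13 and 15. The leader held 33.5% of the family's counts on average in GPR15L after and 14.9% in PBS after.

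Variants were tested in edgeR as counts, and 42 of the 63 members passed the filter on low counts, at least 10 counts in all and counts in at least 3 libraries. The other 21 members held 1397 counts together. Between the arms before DSS, 4 members were higher in the GPR15L arm and 0 were lower. Of all 282 ASVs tested, 1.42% were called higher and 0.355% lower. ASV49 took 2.20%, 1.11% and 1.46% of counts in libraries 1 to 3. ASV75 took 1.13%, 0.499% and 0.684% there, and ASV82 0.979%, 0.483% and 0.591%. ASV114 was at 0.101%, 0.381% and 0.494%. None of these 4 had a count in libraries 4 to 6, so the groups did not overlap for any of them. ASV49, ASV75 and ASV82 had counts in libraries 1 to 3 only, so they passed the filter through the group where they were high. ASV172 and ASV173, named after their values were seen, had counts in libraries 4 and 5 only (484 and 479) and did not pass it. Without the filter, 6 members were called higher and 0 lower.

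Against the limit in the PBS arm, ASV49 was higher by at least 1820-fold (edgeR adjusted p = 0.0240), ASV75 by at least 884-fold (0.0467), ASV82 by at least 785-fold (0.0467) and ASV114 by at least 373-fold (0.0240). The filter admitted ASV49, ASV75 and ASV82 through libraries 1 to 3 alone, so their adjusted p-values are a description and no support. None of the 4 calls held with library 7 counted as titled, or without library 1, 2, 3, 4 or 5. Without 1 of libraries 1 to 3, ASV49, ASV75 and ASV82 were found in too few libraries to be tested. Over the 42 members the median log2 fold change was 1.85, beside -0.37 for all ASVs tested. Shares did not overlap in the higher direction for 18 of the 42 members (7.80% of all ASVs), among them ASV18, at 3.27%, 2.89% and 4.07% against 0.367%, 0.244% and 0.647%, and ASV16, at 6.88%, 1.42% and 10.9% against 0.531%, 0.373% and 0.0293%. Neither passed the test (edgeR adjusted p = 0.228 and 0.264).

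The widest change in members was over DSS in the GPR15L arm. Of the 42 tested, 22 were called lower, 1 was called higher and 19 did not pass. Of all ASVs tested 28.4% were called, 19.5% lower and 8.87% higher. The log2 fold change was above 0 for 12 members. The members' median log2 fold change was -3.87 (-3.57 with variants without counts in 1 group set at their bound), beside 0.00 for all ASVs. Shares did not overlap in the lower direction for 24 members (18.8% of all ASVs) and in the higher direction for 2 (10.6%). Leaving out 1 library of the arm gave 11 to 17 calls in place of 23, the lowest without library 3.

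Of the 22 called lower, 17 had counts in every GPR15L library before DSS and in none after it. Over all 389 ASVs found in that arm the share with this pattern was 10.3%, against 31.5% of the 54 members found there. The reverse pattern, found in every library after and none before, was seen for 0 members and 3.34% of all ASVs. These 17 variants held 47.3%, 38.0% and 38.0% of the family's counts in libraries 1 to 3. They are described below by where else they were found.

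The first 4 of them, ASV49, ASV57, ASV75 and ASV82, were found in no library after DSS in either arm. ASV57 had 0.453%, 1.18% and 2.75% of counts in libraries 1 to 3 and was at least 1603-fold lower after DSS (edgeR adjusted p = 0.0101); its mean before DSS of 1.46% was 0.816% without library 3. ASV49 was at least 1741-fold lower (0.00712), ASV75 at least 846-fold (0.00965) and ASV82 at least 751-fold (0.00965). Of the 4, only ASV57 was also found in the PBS arm before DSS, at 0.574% and 0.477% in libraries 4 and 5. The others passed the filter on low counts through libraries 1 to 3 alone, so their calls over DSS are a description and no support.

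A further 5 were found after DSS in some PBS libraries. ASV13, with 4.41%, 6.31% and 9.80% of counts, was among the most abundant members before DSS and at least 7507-fold lower after it in the GPR15L arm (edgeR adjusted p = 0.00870). ASV37 stood at 2.76%, 1.80% and 3.46% (at least 2931-fold lower, 0.00965) and ASV61 at 0.513%, 1.16% and 2.97% (at least 1697-fold lower, 0.0125). The mean of ASV61 before DSS was 1.55%, and 0.836% without library 3. In the PBS arm after DSS these 3 had counts in library 13 only, at 0.104%, 0.0280% and 0.0360%. ASV256 and ASV282, named after their values were seen, were rare in every library, with at most 0.0532% and 0.0303% of counts.

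The last 8, ASV44, ASV50, ASV88, ASV89, ASV94, ASV110, ASV114 and ASV246, were found in every PBS library after DSS. In the GPR15L arm, ASV44 had 1.38%, 0.619% and 0.556% of counts before DSS. It was lower by at least 935-fold after it (edgeR adjusted p = 0.00712). ASV50 had 0.842%, 0.930% and 1.07% and was at least 1038-fold lower (0.00712). The small ASV246, like ASV256 and ASV282, was not called lower under most alternatives (9, 9 and 10 of 13). The 8 together held 7.65% ± 2.84 of the family's counts in GPR15L before (SD, n = 3), 0% in GPR15L after and 19.0% ± 6.52 (n = 4) in PBS after.

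In the 5 other members called lower, the groups were less cleanly divided. ASV97 had no count in library 1 and 1.84% and 1.25% in libraries 2 and 3, and none after DSS (at least 1130-fold lower, edgeR adjusted p = 0.0376); its mean of 1.03% was 0.623% without library 2, and it was not called without any 1 of the 4 libraries after DSS. ASV16 and ASV18 were still found after DSS. ASV16 was at 0.0208%, 0.0321%, 0.265% and 0% (log2 fold change -6.17 ± 1.86, edgeR adjusted p = 0.0340), with a mean of 0.0794% that was 0.0176% without library 10, and a mean before DSS of 6.40% that was 4.15% without library 3. ASV18 was at 0.660%, 0.204%, 0.706% and 0.264% after DSS (-2.75 ± 0.89, 0.0454). The calls of ASV16 and ASV18 were lost under 5 and 7 of 14 alternatives. ASV83 and ASV153, named after their values were seen, were at means of 0.417% and 0.133% before DSS (0.0622% for ASV153 without library 1), and the first fell to 0.0409% and the second to 0; these calls were lost under 9 of 14 and 7 of 13 alternatives.

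The only member called higher was ASV20. It had 0.259%, 0.297% and 0.461% of counts before DSS and 1.50%, 1.71%, 6.59% and 1.71% after it in the GPR15L arm, so the groups did not overlap. The log2 fold change was 3.31 ± 1.20 (edgeR adjusted p = 0.0497), and the call was lost under 11 of 14 alternatives. Its mean after DSS of 2.88% was 1.64% without library 10. ASV43, named after its values were seen, was also higher after DSS in this arm without overlap. It had 0.282%, 0.178% and 0.461% before and 0.839%, 0.730%, 1.07% and 0.998% after. The difference was not called (log2 1.65 ± 1.31, edgeR adjusted p = 0.345).

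**Figure D3:**
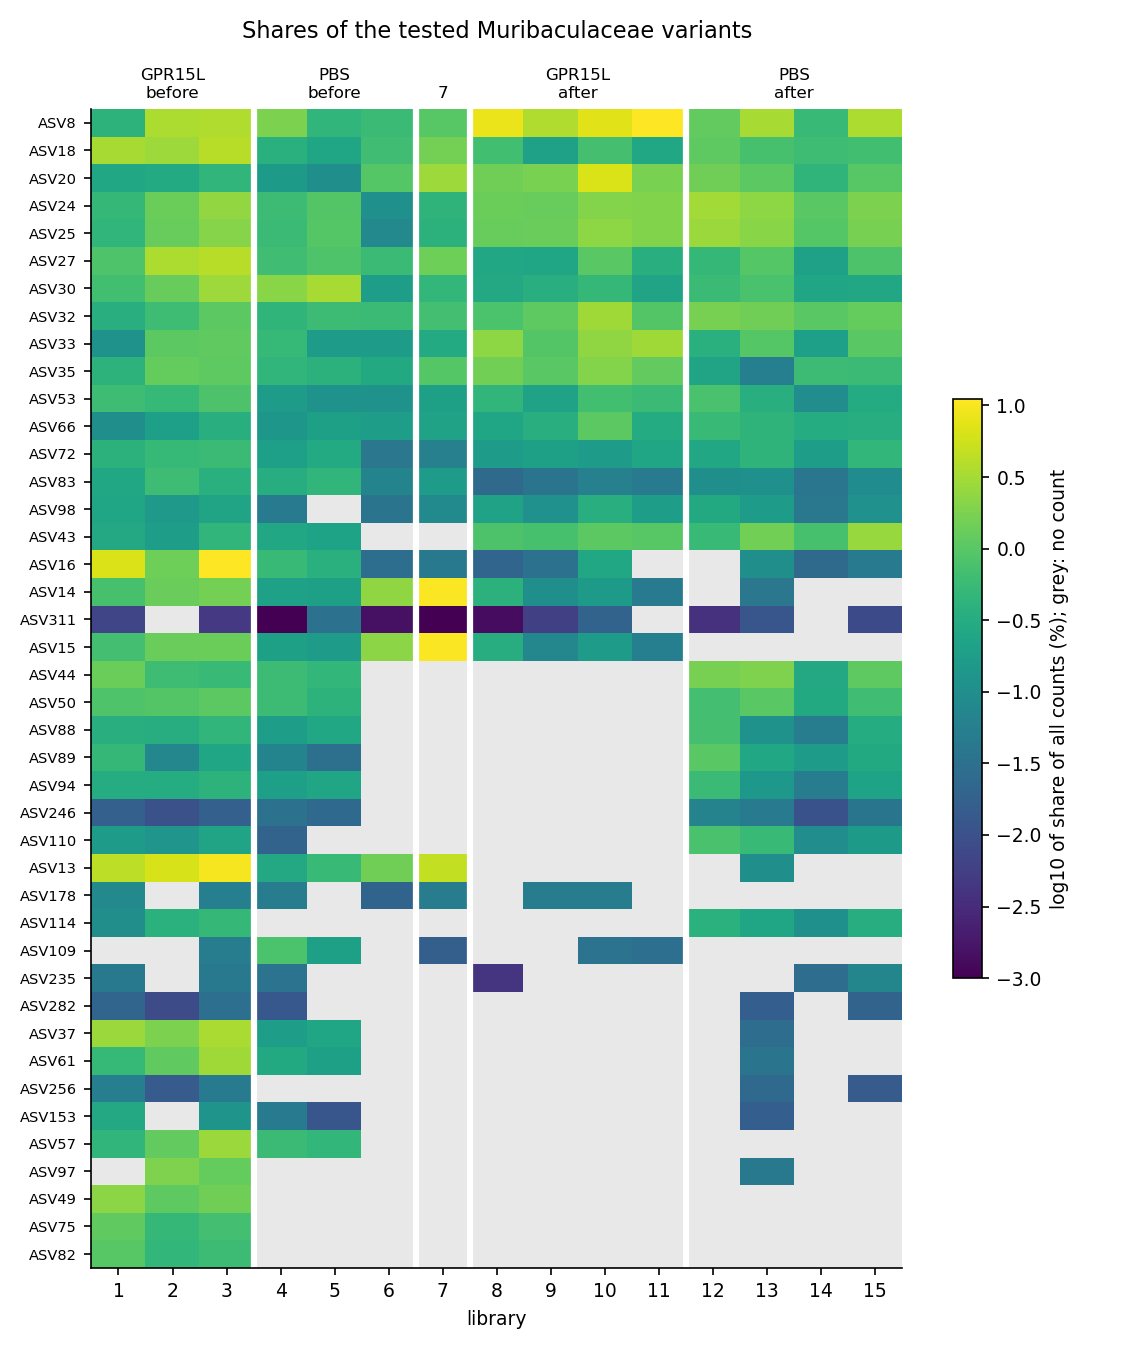
Share of all counts in each library for the 42 Muribaculaceae variants tested, as log10 of the percentage, with grey where a variant had no count and white lines between groups (library 7 stands alone). Variants are ordered by the number of libraries they were found in, library 7 included. Most of the lower rows are grey in libraries 8 to 11, and 8 of those (ASV44, ASV50, ASV88, ASV89, ASV94, ASV110, ASV114 and ASV246) are filled in all of libraries 12 to 15.

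In the PBS arm few members were called over DSS. Of 42, 1 was called higher, 2 were called lower and 39 did not pass, where 1.77% of all ASVs were called higher and 2.48% lower. Unadjusted edgeR p was under 0.05 for 12. DESeq2 called 5 higher and 6 lower, and the fit without library 13 called 7. ASV114 had no count in libraries 4 to 6 and 0.382%, 0.238%, 0.108% and 0.335% in libraries 12 to 15 (higher by at least 305-fold, edgeR adjusted p = 0.0115). ASV15 went the other way, from 0.198%, 0.170% and 2.20% before DSS to no count in the 4 libraries after it (at least 666-fold lower, edgeR adjusted p = 0.00134). Its mean before DSS was 0.856%, and 0.184% without library 6. ASV57, found in libraries 4 and 5 but not in 6, was also absent after DSS (at least 273-fold lower, edgeR adjusted p = 0.0397), and was not called without library 5, 12, 14 or 15.

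Shares in the PBS arm did not overlap for 8 members in the higher direction (13.5% of all ASVs) and 3 in the lower (4.26%). The members' median log2 fold change was 0.99, beside 0.00 for all ASVs. Library 7 bears on ASV15, since it held 10.5% of that library's counts. With library 7 counted as PBS after DSS, ASV15 had a log2 fold change of 0.72 and ASV114 was no longer called.

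After DSS the arms differed in members that the GPR15L libraries lacked. Of 42 members, 2 were higher with GPR15L, 9 were lower and 31 did not pass, where 28.0% of all ASVs were called, 10.6% higher and 17.4% lower; the members' share of calls, 26.2%, was near that background. DESeq2 called 5 higher and 9 lower. The members' median log2 fold change was -0.15, beside 0.00 for all ASVs; it was -0.60 with TMM (-0.08 for all ASVs) and -0.43 with total counts only (0.00). Shares did not overlap for 5 members in the higher direction (11.0% of all ASVs) and 8 in the lower (19.9%).

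Among those lower, ASV44 took 1.67%, 1.87%, 0.276% and 1.11% of counts in PBS after DSS and ASV50 0.693%, 1.02%, 0.289% and 0.650%. ASV110 took 0.767%, 0.562%, 0.0958% and 0.158%. Library 14 was the lowest of the 4 for each of them, and that library also had the lowest share of the family. ASV88 stood at 0.716%, 0.122%, 0.0516% and 0.324%, ASV94 at 0.571%, 0.142%, 0.0501% and 0.225%, and ASV89 at 1.03%, 0.266%, 0.168% and 0.286%. For these 3 library 12 was the highest, and their means of 0.303%, 0.247% and 0.438% were 0.166%, 0.139% and 0.240% without it.

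None of these variants, nor ASV114, had a count in libraries 8 to 11. ASV110 was at least 434-fold lower with GPR15L (edgeR adjusted p = 0.00640), ASV89 at least 481-fold (0.00523), ASV88 at least 333-fold (0.00794), ASV114 at least 292-fold (0.00426) and ASV94 at least 271-fold (0.00812). The calls of ASV44, ASV50, ASV88, ASV89, ASV94, ASV110 and ASV114 held under all 15 alternatives run, with adjusted p of at most 0.0234. The other 2 lower calls were ASV246, at 0.0398% ± 0.0226 (SD, n = 4) in PBS after, and ASV13, which rested on library 13.

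Those higher with GPR15L after DSS were ASV15 and ASV35. ASV15 had 0.326%, 0.0758%, 0.167% and 0.0562% of counts in libraries 8 to 11 and none in libraries 12 to 15 (higher by at least 122-fold, edgeR adjusted p = 0.00426); its mean of 0.156% was 0.0998% without library 8. With library 7 as titled the log2 fold change was -3.49. Before DSS, ASV15 stood at 0.677%, 1.31% and 1.36% in the GPR15L arm. It was thus lower after DSS in that arm too, without overlap and without being called (log2 -2.66 ± 1.26, edgeR adjusted p = 0.109). ASV14, whose counts followed those of ASV15, was not called between the arms after DSS (edgeR adjusted p = 0.0789). Nor was it called over DSS with PBS (0.0606) or in the interaction (0.289). ASV35, a Muribaculum, had 1.56%, 1.01%, 1.94% and 1.17% with GPR15L and 0.230%, 0.0560%, 0.585% and 0.567% with PBS. The groups did not overlap, and the log2 fold change was 2.52 ± 0.83 (edgeR adjusted p = 0.0347). The call was lost under 11 of 15 alternatives.

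Muribaculum, the genus that gave the family its name, was otherwise a small part of it. ASV35 was found in every library, at 0.409%, 1.24% and 1.11% in GPR15L before and 0.457%, 0.395% and 0.291% in PBS before, and its changes over DSS were not called (log2 0.88 ± 0.87 with GPR15L, edgeR adjusted p = 0.461, and -0.38 ± 0.85 with PBS, 0.870). ASV277 was found in libraries 1 and 3 only, at 0.0355% and 0.0845%, and was not tested.

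**Figure D4:**
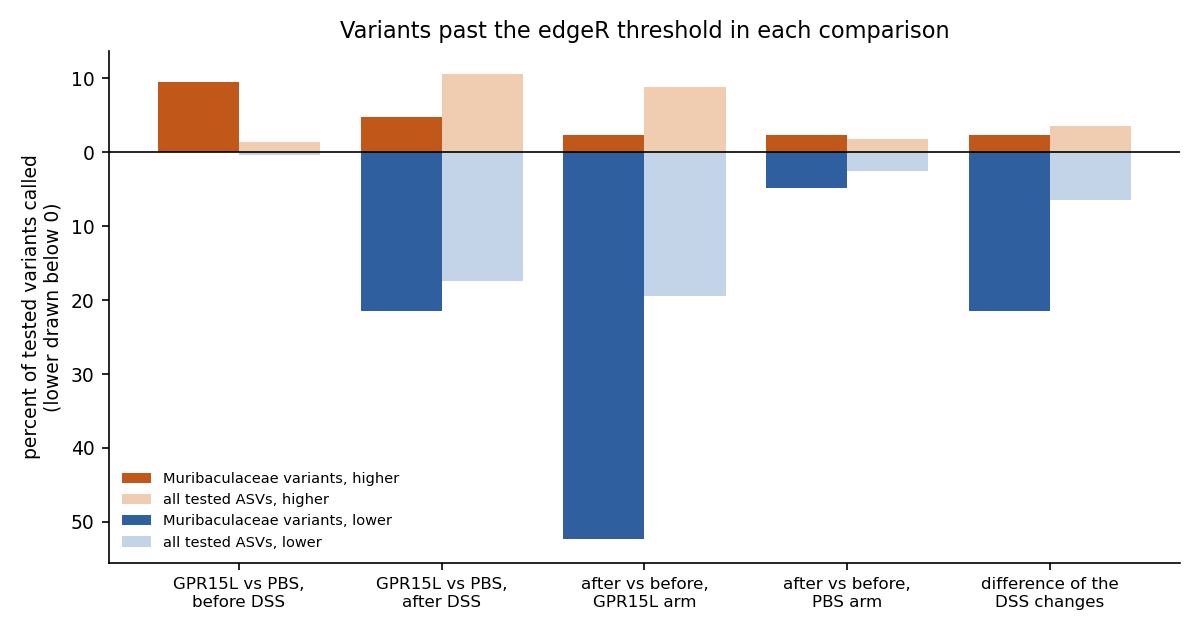
Percent of tested variants called higher (above 0) and lower (drawn below 0) in edgeR at an adjusted p of 0.05, for the 42 Muribaculaceae variants (dark) and all 282 ASVs tested (pale), which include them. The tallest bar is the 52.4% of Muribaculaceae variants called lower over DSS in the GPR15L arm, beside 19.5% of all ASVs.

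The change over DSS itself differed between the arms for 10 members (9.93% of all ASVs were called in this interaction, 3.55% higher and 6.38% lower). The log2 change with GPR15L was above that with PBS for 1 member and below it for 9. The latter were ASV44, ASV50, ASV88, ASV89, ASV94, ASV97, ASV110, ASV114 and ASV256. In the PBS arm ASV97 had only 22 counts, all in library 13, without which it would not pass the filter. ASV256 had 12 and 9 counts there, in libraries 13 and 15. For ASV114 the edgeR adjusted p was 0.00107 and for ASV44, ASV50, ASV89 and ASV110 it was 0.00802. The former was ASV15 (0.0126), which had lower shares after DSS in both arms. With library 7 as titled, ASV15, ASV88, ASV94 and ASV256 were not called. Each of the 10 has a group without counts, so a fitted size depends on the prior count and is no bound. The comparisons share libraries, so their calls are not independent of each other.

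The most abundant members that passed no test show how the shared set varied. ASV8 had 0.409%, 3.52% and 3.66% of counts in GPR15L before, 1.75%, 0.461% and 0.578% in PBS before, 8.37%, 3.65%, 7.35% and 11.1% in GPR15L after and 1.19%, 3.27%, 0.550% and 3.49% in PBS after. The arms after DSS did not overlap, but the difference was not called (log2 2.15 ± 0.87, edgeR adjusted p = 0.0699). ASV24 was between 0.109% and 0.905% in PBS before and between 1.03% and 3.03% in PBS after, without overlap (2.01 ± 0.91, 0.139), and ASV25 gave nearly the same values. ASV32 was between 0.446% and 0.596% in PBS before and between 1.01% and 1.66% in PBS after, again without overlap (1.11 ± 0.88, 0.433).

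ASV27 and ASV30 had lower shares after DSS in the GPR15L arm without being called. ASV27 had 0.843%, 3.49% and 4.04% before and 0.256%, 0.241%, 1.03% and 0.339% after (log2 -2.23 ± 0.95, edgeR adjusted p = 0.0791). ASV30 had 0.671%, 1.30% and 2.89% before and 0.282%, 0.363%, 0.491% and 0.230% after (-2.10 ± 0.96, 0.0993). The first overlapped between the times and the second did not.

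Turnover between groups was counted from presence. With PBS, 32 of the 48 members found in the arm were found both before and after DSS (a share of 0.667, beside 0.489 over all ASVs found there), and those found before only held 14.8% ± 6.19 (SD, n = 3) of the family's counts. With GPR15L, 23 of 54 were found at both times (0.426, beside 0.332 over all ASVs), and those found before only held 43.8% ± 4.30 (n = 3). Those found after only held 0.0189% ± 0.0315 (n = 4) of the family's counts with GPR15L and 1.61% ± 0.241 (n = 4) with PBS. Found in every library of one time and none of the other were 17 members with GPR15L, all before DSS, and 2 with PBS, 1 each way (1.05% of ASVs for before DSS and 2.89% for after). Without library 6 the latter count was 6, without library 13 it was 4, and with library 7 as titled it was 0.

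Between the arms, 37 of 55 members were shared before DSS (0.673, beside 0.579 over all ASVs) and 20 of 45 after it (0.444, beside 0.375). Found in every GPR15L library and no PBS library before DSS were 5 members, ASV49, ASV75, ASV82, ASV114 and ASV256 (2.11% of all ASVs found), and 0 the other way (0.263%). After DSS the counts were 1 and 8 (5.11% and 11.6% of all ASVs), and both were 0 with library 7 as titled. In all, 51 members were found in some library of GPR15L before, 41 of PBS before, 26 of GPR15L after and 39 of PBS after, with 3, 3, 4 and 4 libraries.

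The 17 members missing from the GPR15L arm after DSS were also unevenly spread over the PBS libraries before DSS. Library 4 had 12 of them, library 5 had 10, and library 6 had 1, ASV13. Library 7 also had ASV13 alone of the 17. The 6 variants ASV44, ASV50, ASV88, ASV89, ASV94 and ASV246 shared 1 pattern over all libraries: they were found in libraries 1 to 5 and 12 to 15 and in none of libraries 6 to 11. Libraries 6 and 7, from the PBS arm, thus lacked them too.

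Library 13 stood apart among the PBS libraries after DSS. It alone of the 4 had ASV13, ASV14, ASV37, ASV61, ASV97, ASV153 and ASV443, with 4 to 52 counts each and 0.276% of its counts together. Of these 7, 4 had counts in all of libraries 1 to 3 (ASV13, ASV14, ASV37 and ASV61), and none had over 0.104% of the counts of library 13.

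Distances within the family followed the same lines. Libraries 8 to 11 lay 0.0902 to 0.287 from each other, libraries 12 to 15 0.152 to 0.321 and libraries 1 to 3 0.192 to 0.375. Between times, the median distance was 0.700 with GPR15L and 0.520 with PBS, and between the arms it was 0.498 before DSS and 0.420 after. All distances over time in the GPR15L arm, from 0.643 up, were larger than any distance within either of its groups. In the PBS arm the 3 libraries before DSS were up to 0.668 apart, which is above the largest distance over time of 0.660. The median distance among these 3 libraries, 0.664, was also above the median of 0.498 between the arms before DSS.

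The counts of some members kept a narrow range of ratios over the libraries that held both. Among pairs of the 35 members with at least 1000 counts, 413 had at least 50 counts of both in 5 or more libraries, and the SD of the log2 ratio of their counts over libraries had a median of 1.36. It was under 0.5, a limit chosen after the values were seen, for 9 pairs. ASV32 had 3.16 times the counts of ASV66 at the median (2.82 to 3.74 over 15 libraries), with an SD of 0.098, where counting error alone gives 0.114. In the other pairs the SD was above counting error. ASV24 to ASV25 had a ratio of 1.07 (0.855 to 1.36, SD 0.150, counting error 0.080), ASV8 to ASV33 of 3.39 (2.65 to 4.03, SD 0.153, counting error 0.092) and ASV14 to ASV15 of 1.08 (0.962 to 1.38 over 10 libraries, SD 0.158, counting error 0.138); library 13 had ASV14 without ASV15. ASV88 to ASV94 stood at 1.10 over 8 libraries (SD 0.231, counting error 0.153) and ASV53 to ASV98 at 2.63 over 12 (SD 0.321, counting error 0.157). ASV14, ASV33, ASV53, ASV66 and ASV98 were named after their values were seen. Both members of such a pair were counted separately in richness, turnover and calls, and whether they come from 1 genome was not tested.

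**Figure D5:**
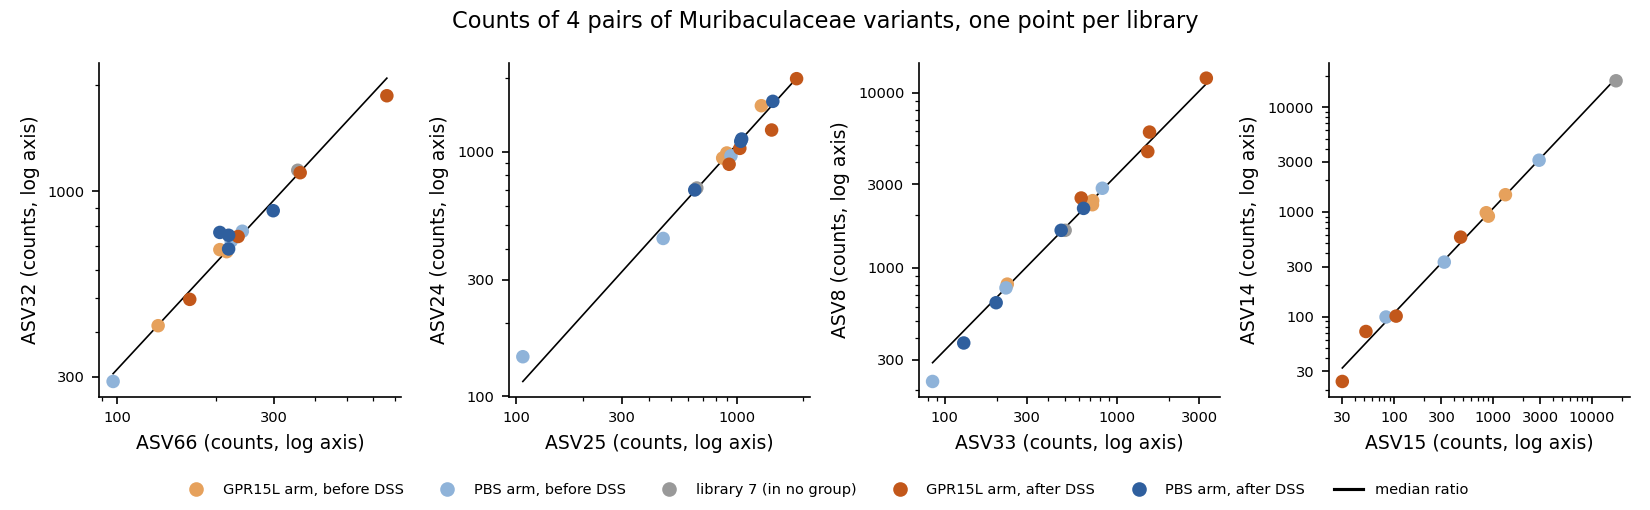
Counts of 4 pairs of Muribaculaceae variants, 1 point per library with counts of both, on log axes, with a line at the median ratio. The points follow the line over the whole range of counts, from libraries before and after DSS and from both arms; ASV14 and ASV15 reach their highest counts in library 7.

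Within the Bacteroidales the calls over DSS in the GPR15L arm lay mostly in this family, which also had most of the variants tested. Bacteroidaceae, which use a wide range of glycans, had 1 ASV higher and 1 lower of 8, Rikenellaceae 2 lower of 5 and Tannerellaceae 1 lower of 4. The single ASV of Marinifilaceae was higher and the single ASV of Prevotellaceae was not called. Summed counts of these 5 families were not called in any of the 4 comparisons or in the interaction. Whether the share of variants called differs between families was not tested.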

How the data were processed

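Stool DNA was extracted and the V4 region amplified from 10 ng of template in 25 cycles and sequenced with 151-base paired reads, per the labels' protocols. The authors deposited whole-number counts of reads for each ASV, made with DADA2 according to the name of the table. Its version, the filters and the taxonomy database are not stated in the labels. Per the submitters' processing notes, R 4.5.1 and limma were used, with no role given. ASV sequences were not analysed here. Total counts per library were 48847 to 197433.

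The 63 members, the lists and the tests were chosen with earlier results of these data known. Counts of 14 libraries were tested with edgeR 4.0.16 in R 4.3.3 (quasi-likelihood test, TMMwsp scaling, 1 mean for each group), and p-values were adjusted by Benjamini-Hochberg over 282 ASVs (at least 10 counts in all and counts in 3 libraries; 98.3% of counts) or 38 families, called at 0.05. The SE is the log2 fold change over the square root of F. The fit was tested on simulated data for the arms after DSS only. No variant was set there to be absent from a whole group, so that run cannot speak to such calls. Richness was thinned by formula, and "found" means at least 1 count. Scaling is relative within a library, so a share can fall because others grow.

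Variants named by rule were those called whose mean share reached 0.1% in a group (up to 10 each way by log2 fold change). The 10 most abundant and the 2 of Muribaculum were also named by rule. All others, ASV246 and ASV443 among them, were named after their values were seen, whether or not this is said beside them. Alternatives were TMM, total counts only, DESeq2 1.42.0 (poscounts), no filter, a filter at 0.1%, the 2 groups alone, each library left out, library 7 counted as titled, and other measures of richness and evenness.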

Additional observations from a re-analysis of the deposited data

Results flagged for a closer look

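Some libraries stood far from the rest of their group of 4. In PBS after DSS, library 14 had 8.36% of counts in the family where the others had 19.7% to 21.3%. In the same group library 13 alone had counts of ASV13 (0.104%), ASV37 (0.0280%), ASV61 (0.0360%) and ASV97 (0.0440%), and library 12 had 1.03% of ASV89 where the others had 0.168% to 0.286%. In GPR15L after DSS it was library 10 each time: ASV20 at 6.59% (others 1.50% to 1.71%), ASV32 at 2.97% (0.782% to 1.09%), ASV27 at 1.03% (0.241% to 0.339%) and ASV16 at 0.265% (0% to 0.0321%). These are 10 of 42 groups of values examined. Chance flags about 5% of groups of independent values, a rate that does not apply here, since 4 of the 10 are counts in library 13 against 3 libraries at 0, and 4 others are all from library 10.

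The change over DSS differed between the arms, by the edgeR interaction term, for 10 variants. On the log2 scale, as GPR15L minus PBS, it was 10.43 for ASV15 (adjusted p = 0.0126), -14.87 for ASV44 (0.00802), -14.07 for ASV50 (0.00802), -12.71 for ASV88 (0.0165), -15.23 for ASV89 (0.00802), -12.36 for ASV94 (0.0165), -19.15 for ASV97 (0.0345), -16.71 for ASV110 (0.00802), -21.94 for ASV114 (0.00107) and -14.49 for ASV256 (0.0326). All have a group without counts, so the sizes depend on the prior count and are no bounds. In the PBS arm ASV97 had counts in library 13 alone and ASV256 in libraries 13 and 15. ASV97 was not called in 6 of 17 alternatives and ASV256 in 5 of 19, among them single libraries left out, and ASV15, ASV88 and ASV94 were not called with library 7 as titled.

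Library 7, in no comparison, had a family share of 36.7%, above the 8.36% to 21.3% of the other PBS libraries, and 10.5% of ASV15, above the 0% to 2.20% of the others.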

How the results depend on the processing

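No paired analysis was possible because the labels give each library an ID of its own, with none shared between groups. Variants called between the arms before DSS numbered 4, 2 with total counts only, 0 with library 7 as titled and 0 to 4 with 1 library left out; over DSS with GPR15L they numbered 23, and 11 to 17 with 1 library left out; over DSS with PBS they numbered 3, 11 with DESeq2, 6 without the filter, 1 with library 7 as titled and 2 to 7 with 1 library left out. The family's log2 fold change between the arms before DSS was called with DESeq2 (2.29), without the filter (2.75) and at the upper end of its range of 1.67 to 3.08 with 1 library left out. Richness over DSS with PBS ranged from -6.85 to 2.51 with 1 library left out. Evenness between the arms before DSS ranged from -0.0407 to 0.00305, and by the share of the top variant the sign turned (-3.05 percentage points, where lower is more even). By the inverse Simpson index, evenness over DSS was -0.0359 with GPR15L and 0.0814 with PBS. With PBS it was -5.54 by the share of the top variant, -0.0211 with library 7 as titled and -0.0111 to 0.0327 with 1 library left out. With library 7 as titled, variants in every library of a group and none of the other numbered 0 between the arms after DSS and 0 over DSS with PBS, where 1 library left out gave 2 to 6. It also turned ASV15 between the arms after DSS (-3.49), over DSS with PBS (0.72) and in the interaction (-3.38), and ASV35 over DSS with PBS (0.13). The cause was not tested. Of the 23 calls over DSS with GPR15L, those of ASV13, ASV37, ASV44, ASV49, ASV50, ASV57, ASV61, ASV75, ASV82, ASV88, ASV89, ASV94, ASV110 and ASV114 held in all alternatives in which they were tested. For ASV49, ASV75 and ASV82 this is no support. They passed the filter through libraries 1 to 3 alone and were not tested with 1 of those left out. Other scalings moved the median of all ASVs from -0.37 to as low as -0.49 between the arms before DSS, to -0.20 with TMM over DSS with GPR15L, and from 0.33 to 0.02 in the interaction, and turned no median of the members. With 3 or 4 libraries a group, and a variant's absence known only down to 3 counts, small changes cannot be seen.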
